A study of Mus musculus with 6 samples.

Results

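A set of 9 genes of zinc buffering and transport outside the insulin granule was followed in mouse islet RNA. They are Mt1, Mt2, Mtf1, Slc30a1, Slc30a2, Slc30a5, Slc39a5, Slc39a10 and Slc39a14. The rule is this list of names and sets no threshold on a measured value, but the names were chosen with earlier results of these data known. All 9 were found among the 46983 genes of the count table and passed the filter that left 13996 genes for testing. Wild-type islets were kept in CMRL medium for 24 h at high (stimulating) glucose in 3 libraries and at low (non-stimulating) glucose in 3 others, and polyadenylated RNA was sequenced. The labels name no allele and no agent other than glucose, and give no strain, age, glucose concentration or number of animals per library. The series addresses redox signaling and the adaptation of beta-cell metabolism.

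Zinc is held in check in cells by several kinds of protein. Metallothioneins are small cysteine-rich proteins that bind zinc and copper in the cytosol. Transporters of the SLC30 (ZnT) family move zinc out of the cytosol, across the plasma membrane or into vesicles, and those of the SLC39 (ZIP) family move it in. Beta cells carry large amounts of zinc because insulin is stored in the granule as a zinc-bound crystal, loaded by Slc30a8, and acinar cells release zinc with their digestive enzymes.

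Library totals were 14150726 to 15846235 counts at high and 10596020 to 12730985 counts at low glucose. Every library held exocrine RNA. A set of 28 acinar markers took 11.8% to 23.6% of the counts at high and 42.8% to 57.0% at low glucose, 23 of them fell and none was at 0. The 20 hormone and granule genes took 4.12% to 11.0% at high and 2.35% to 4.98% at low glucose, with 4 higher and 2 lower. The 10 beta-cell markers, all detected in every library, took 2.42% to 7.08% at high and 1.47% to 3.17% at low glucose; 0 of them rose and 5 fell, with a median log2 fold change of -1.14 on the TMM scale. The 16 intestinal markers took 0.00559% to 0.0323% at high and 0.111% to 0.603% at low glucose, and all 14 tested fell. The shares, high against low, were 0.729% to 0.778% against 0.0598% to 0.0749% for 10 duct markers, 0.00911% to 0.0383% against 0.00993% to 0.0215% for 10 macrophage markers, and 0.00852% to 0.0171% against 0.00952% to 0.0315% for 10 hepatocyte markers. They were 0.00728% to 0.0686% against 0.0176% to 0.0366% for 10 stellate and fibroblast markers and 0.0242% to 0.0662% against 0.0177% to 0.0357% for 10 endothelial markers. Of the duct markers 4 rose and 1 fell, with a median log2 fold change of 0.09. In such mixed RNA, fewer cells of a type and less RNA per cell cannot be told apart. High glucose replicate 1 stood apart on the second principal component, which held 13.6% of the variance. Txnip, a gene that glucose is known to raise in islets, went the other way: it had 86.4, 369 and 353 counts per 1000000 (CPM, on TMM-scaled library sizes) in the libraries labelled high glucose and 909, 1339 and 1328 CPM in those labelled low glucose. Pklr, another gene known to rise with glucose, averaged 7.09 ± 1.51 CPM in the libraries labelled high and 39.3 ± 17.9 CPM in those labelled low glucose (SD, n = 3 each), with a log2 fold change of -2.48 ± 0.39 (SE) and an edgeR adjusted p of 0.00447. Whether the labels are exchanged was not tested; directions below follow the labels and would all turn round if they were.

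At high glucose both metallothionein genes rose, by 3.19-fold for Mt1 and 3.38-fold for Mt2. The zinc importer genes Slc39a5 and Slc39a14 fell, and the other 5 genes missed the threshold, Slc39a10 narrowly. By the quasi-likelihood test of edgeR, 4 of the 9 genes passed an adjusted p of 0.05, which is 44.4%, against 27.5% of all genes tested. In each direction 2 of 9 passed, or 22.2%, where 13.3% of all genes tested rose and 14.2% fell. With 9 genes, these counts are not read as particular to them. The libraries of the groups did not overlap for 4 of the 9 genes, or 44.4%, against 45.9% of all genes tested. The median log2 fold change (high minus low) of the 9 genes was 0.15, beside 0.01 for all genes tested.

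**Figure D1:**
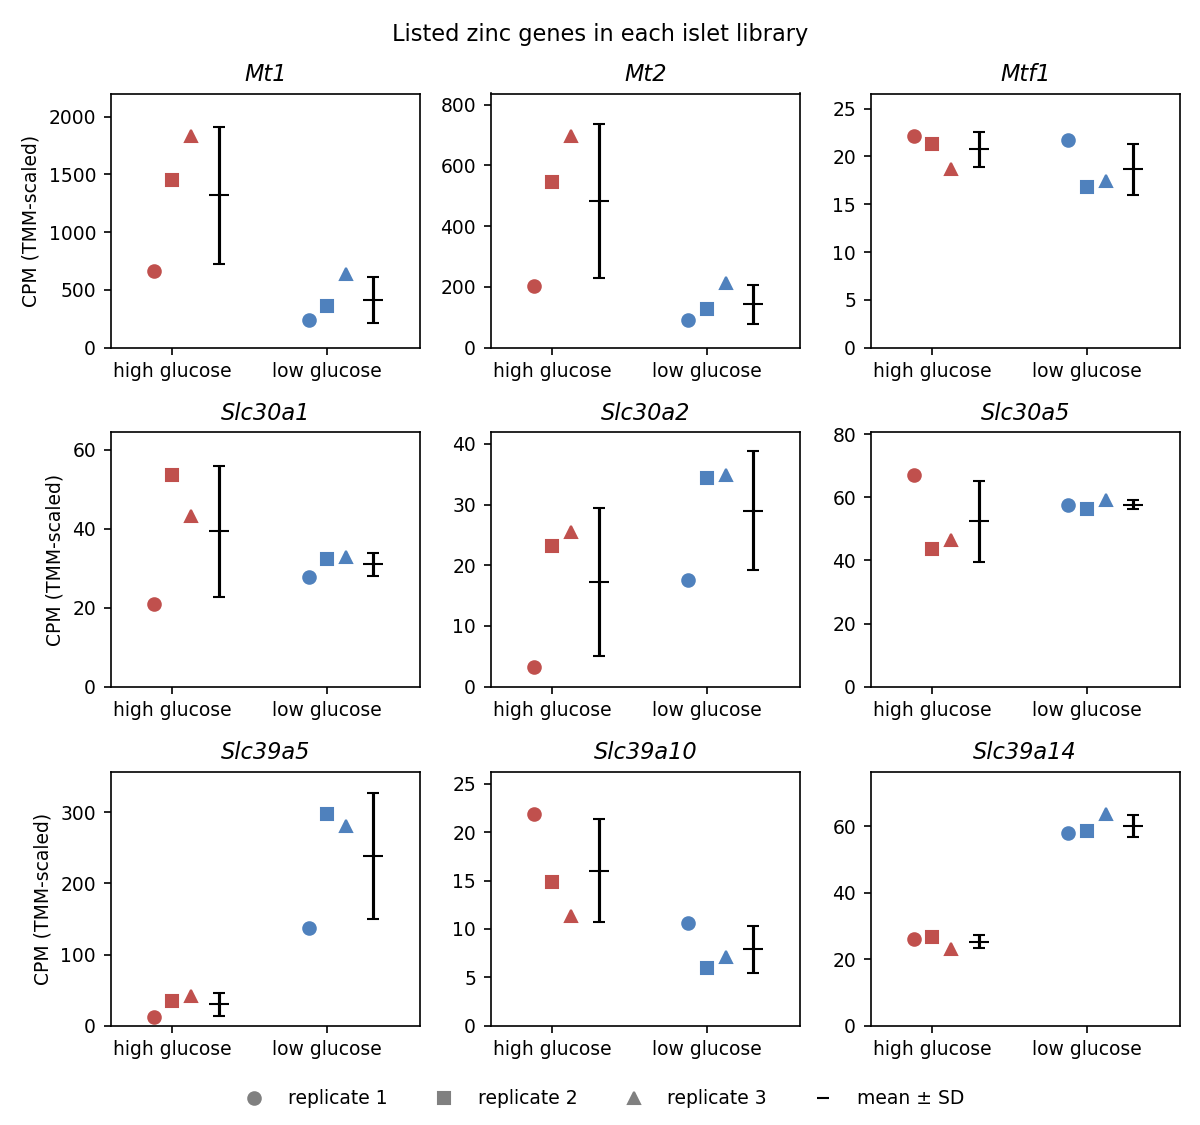
TMM-scaled counts per 1000000 (CPM, vertical axes from 0) of the 9 genes in each library, with high glucose on the left and low glucose on the right, points shaped by replicate number and black bars for the mean ± SD (n = 3). Slc39a14 shows 3 tight points per group at 25.3 and 60.0 CPM on average, whereas Mt1 and Mt2 vary widely within both groups.

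Mt1 lies on mouse chromosome 8 (chr8:94179082-94180327, GRCm38, plus strand) beside Mt2 (chr8:94172664-94173568, plus strand), and both are protein-coding. Mt1 had 668, 1455 and 1833 CPM in high glucose replicates 1 to 3, against 241, 364 and 635 CPM in low glucose replicates 1 to 3. Its lowest high glucose library lay just above its highest low glucose library. Mt1 averaged 1319 ± 595 CPM at high and 413 ± 202 CPM at low glucose (SD, n = 3 each). This was a log2 fold change of 1.67 ± 0.49 (SE), or 3.19-fold, with an edgeR adjusted p of 0.0403.

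Mt2 had 204, 546 and 697 CPM in high glucose replicates 1 to 3, against 89.5, 126 and 213 CPM in low glucose replicates 1 to 3. Here the groups overlapped, since high glucose replicate 1 was below low glucose replicate 3. Its log2 fold change was 1.76 ± 0.50 (SE), or 3.38-fold, with an edgeR adjusted p of 0.0370. Counted without any scaling between libraries, Mt1 and Mt2 together made up 0.156%, 0.274% and 0.355% of all counts in the high glucose libraries, against 0.0310%, 0.0278% and 0.0461% in the low glucose libraries. Mt1 ranked 62, 42 and 36 among all genes by counts at high glucose, against 194, 138 and 83 at low glucose.

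The rise of both genes kept its direction in each of the 15 other fits, with log2 fold changes of 1.37 to 2.89 for Mt1 and 1.41 to 2.95 for Mt2. The calls were close to the threshold. Neither gene passed once low glucose replicate 1 or 2, or else high glucose replicate 2 or 3, was left out, with edgeR adjusted p between 0.0826 and 0.139 and log2 fold changes of 1.37 to 1.68. By limma-voom Mt1 had an adjusted p of 0.0530. Without high glucose replicate 1 the log2 fold changes were 1.99 for Mt1 and 2.12 for Mt2, and both passed. With the replicate number as a block the edgeR adjusted p was 0.00156 for Mt1 and 0.00235 for Mt2.

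The ratio of Mt1 to Mt2 within a library does not depend on scaling. It was 3.27, 2.66 and 2.63 in high glucose replicates 1 to 3 and 2.69, 2.88 and 2.99 in low glucose replicates 1 to 3. On the log2 scale it averaged 1.51 ± 0.18 at high and 1.51 ± 0.08 at low glucose (SD, n = 3 each), a difference of -0.01 with p = 0.9 in a two-sided exact permutation test. The smallest p that 3 libraries against 3 can give is 0.1. The longest run that a transcript of Mt1 shares with one of Mt2 is 20 bases.

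Metallothionein genes are switched on by MTF1, a zinc-sensing transcription factor that binds metal response elements in their promoters, as it does in front of Slc30a1. The RefSeq promoter windows (GRCm38.p6, 250 bases before to 50 after the annotated start) of these 3 genes are shown because they are the textbook targets of MTF1. Capitals mark the core letters of the element, searched as TGCACNC and TGCGCNC on both strands (a match on the minus strand appears as its reverse complement), and every window is given 5′ to 3′ on the plus strand, on which all 3 genes lie. The windows are chr8:94178839-94179138 for Mt1, chr8:94172368-94172667 for Mt2 and chr1:191906531-191906830 for Slc30a1.
Mt1: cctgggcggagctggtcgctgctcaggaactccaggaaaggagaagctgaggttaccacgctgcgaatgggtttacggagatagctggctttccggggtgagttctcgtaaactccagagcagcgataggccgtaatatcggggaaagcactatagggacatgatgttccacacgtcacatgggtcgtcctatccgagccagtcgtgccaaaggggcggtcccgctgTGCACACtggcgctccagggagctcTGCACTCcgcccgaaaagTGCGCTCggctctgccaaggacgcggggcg
Mt2: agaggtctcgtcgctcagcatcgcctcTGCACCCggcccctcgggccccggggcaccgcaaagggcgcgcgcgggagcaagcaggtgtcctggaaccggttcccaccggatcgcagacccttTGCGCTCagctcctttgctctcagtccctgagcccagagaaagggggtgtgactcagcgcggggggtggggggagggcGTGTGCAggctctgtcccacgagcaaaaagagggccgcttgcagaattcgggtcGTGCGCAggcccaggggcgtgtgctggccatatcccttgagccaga
Slc30a1: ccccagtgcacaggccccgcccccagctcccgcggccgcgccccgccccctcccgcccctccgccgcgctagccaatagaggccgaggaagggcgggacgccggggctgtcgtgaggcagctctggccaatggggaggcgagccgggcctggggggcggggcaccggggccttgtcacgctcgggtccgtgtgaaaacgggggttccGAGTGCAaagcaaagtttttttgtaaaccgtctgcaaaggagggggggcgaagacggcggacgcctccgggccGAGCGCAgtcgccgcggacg

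The Mt1 window held 3 matches, the Mt2 window 4 and the Slc30a1 window 2. Of 32851 such windows in the mouse genome, 25.7% held at least 1 match, 7.11% at least 2, 1.97% at least 3 and 0.517% at least 4. A promoter window was found for 8 of the 9 genes. Slc30a2 had 2 matches and Slc30a5 had 1. Slc39a5 had 1 match in one of its windows and 0 in the other, and Mtf1 and both windows of Slc39a10 had 0. These are matches of letters, and binding was not measured.

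Mtf1 (chr4:124802104-124849800, plus strand) did not pass the test itself. It had 22.1, 21.3 and 18.7 CPM in high glucose replicates 1 to 3, against 21.7, 16.8 and 17.5 CPM in low glucose replicates 1 to 3. The groups overlapped, and the log2 fold change was 0.15 ± 0.17 (SE) with an edgeR adjusted p of 0.548. It passed only with library totals (1.27), where the median of all genes was 1.16. It overlaps 1110065P20Rik on the other strand, and the strand setting of the counting is not stated.

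Slc30a1 (chr1:191906767-191913247, plus strand) encodes ZnT1, the exporter that carries zinc out across the plasma membrane. It had 20.98, 53.6 and 43.3 CPM in high glucose replicates 1 to 3, against 27.7, 32.4 and 32.7 CPM in low glucose replicates 1 to 3. High glucose replicate 1 was the lowest of the 6 libraries, and the other 2 high glucose libraries were above all those at low glucose. The log2 fold change was 0.35 ± 0.32 (SE) with an edgeR adjusted p of 0.454. Without high glucose replicate 1 it was 0.65, and Slc30a1 then passed with an edgeR adjusted p of 0.0151. It was 0.06 without high glucose replicate 2, and with library totals it was 1.46 and passed.

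Slc30a5 (chr13:100802648-100833427, minus strand) encodes a transporter that fills the early secretory pathway with zinc and works as a pair with the product of Slc30a6. It had 67.1, 43.7 and 46.5 CPM in high glucose replicates 1 to 3, against 57.5, 56.4 and 59.1 CPM in low glucose replicates 1 to 3. High glucose replicate 1 was the highest library and the other 2 high glucose libraries were the lowest, so the groups overlapped. The log2 fold change was -0.14 ± 0.19 (SE) with an edgeR adjusted p of 0.622. Slc30a6, at 11.8 ± 1.34 CPM at high and 11.0 ± 1.16 CPM at low glucose (SD, n = 3 each), did not pass either. With library totals Slc30a5 (1.05) and Slc30a6 (1.24) both passed as higher, where the median of all genes was 1.16.

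Within a library, the ratio of Slc30a1 to Slc30a5 was 0.313, 1.23 and 0.931 at high and 0.482, 0.576 and 0.554 at low glucose. High glucose replicate 1 lay below, and the other 2 high glucose libraries above, every low glucose library. The difference in log2 ratio was 0.41 with p = 0.5 in the exact permutation test (0.6 adjusted over the 6 ratios examined).

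Slc39a14 fell, with little spread within both groups. It encodes ZIP14, which imports zinc, iron and manganese, and lies on chromosome 14 (chr14:70303469-70351425, minus strand). It had 25.9, 26.8 and 23.1 CPM in high glucose replicates 1 to 3, against 57.8, 58.5 and 63.7 CPM in low glucose replicates 1 to 3. The groups were far apart and tight. Slc39a14 averaged 25.3 ± 1.93 CPM at high and 60.0 ± 3.20 CPM at low glucose (SD, n = 3 each), 2.37-fold lower. The log2 fold change was -1.25 ± 0.13 (SE) with an edgeR adjusted p of 0.00137.

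That fall was relative to the typical gene. Per 1000000 library counts, Slc39a14 had 46.3, 36.6 and 32.4 in high glucose replicates 1 to 3 and 54.3, 33.2 and 34.6 in low glucose replicates 1 to 3, and the groups overlapped. Its log2 fold change with library totals was -0.08 (edgeR adjusted p 0.802), against a median of 1.16 for all genes. With scaling to 20 hormone and granule genes it was -0.96 (edgeR adjusted p 0.119). It kept its call in each of the 6 fits that left out 1 library, with log2 fold changes of -1.28 to -1.18.

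Slc39a10 (chr1:46807544-46892852, minus strand) encodes ZIP10, a plasma membrane importer whose gene is repressed by zinc through MTF1 in mouse cells. It had 21.9, 14.8 and 11.4 CPM in high glucose replicates 1 to 3, against 10.6, 5.98 and 7.08 CPM in low glucose replicates 1 to 3. The groups did not overlap, but high glucose replicate 3 was close to low glucose replicate 1. The log2 fold change was 1.00 ± 0.32 (SE), with an edgeR adjusted p of 0.0517 that just missed the threshold. With the replicate number as a block, the log2 fold change was 1.01 and the edgeR adjusted p was 0.0109. It also passed by DESeq2 (1.00, adjusted p 0.0239), with scaling to hormone and granule genes (1.24), with library totals (2.12) and with no filter (1.10). In all, Slc39a10 passed in 5 of the 15 other fits. It passed in 0 of the 6 fits that left out 1 library, with log2 fold changes of 0.70 to 1.30 and edgeR adjusted p of 0.0504 to 0.162.

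The ratio of both importer genes needs no scaling. There were 1.18, 1.80 and 2.02 counts of Slc39a14 for each count of Slc39a10 in high glucose replicates 1 to 3, and 5.42, 9.66 and 8.91 in low glucose replicates 1 to 3. The mean log2 ratio was 0.70 ± 0.41 at high and 2.96 ± 0.45 at low glucose (SD, n = 3 each), a difference of -2.25. The groups did not overlap, and p was 0.1 in the exact permutation test, the smallest it can give (0.15 adjusted over the 6 ratios). Both genes already kept the groups apart in CPM, in opposite directions. This outcome was therefore fixed in advance and is no separate result.

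**Figure D2:**
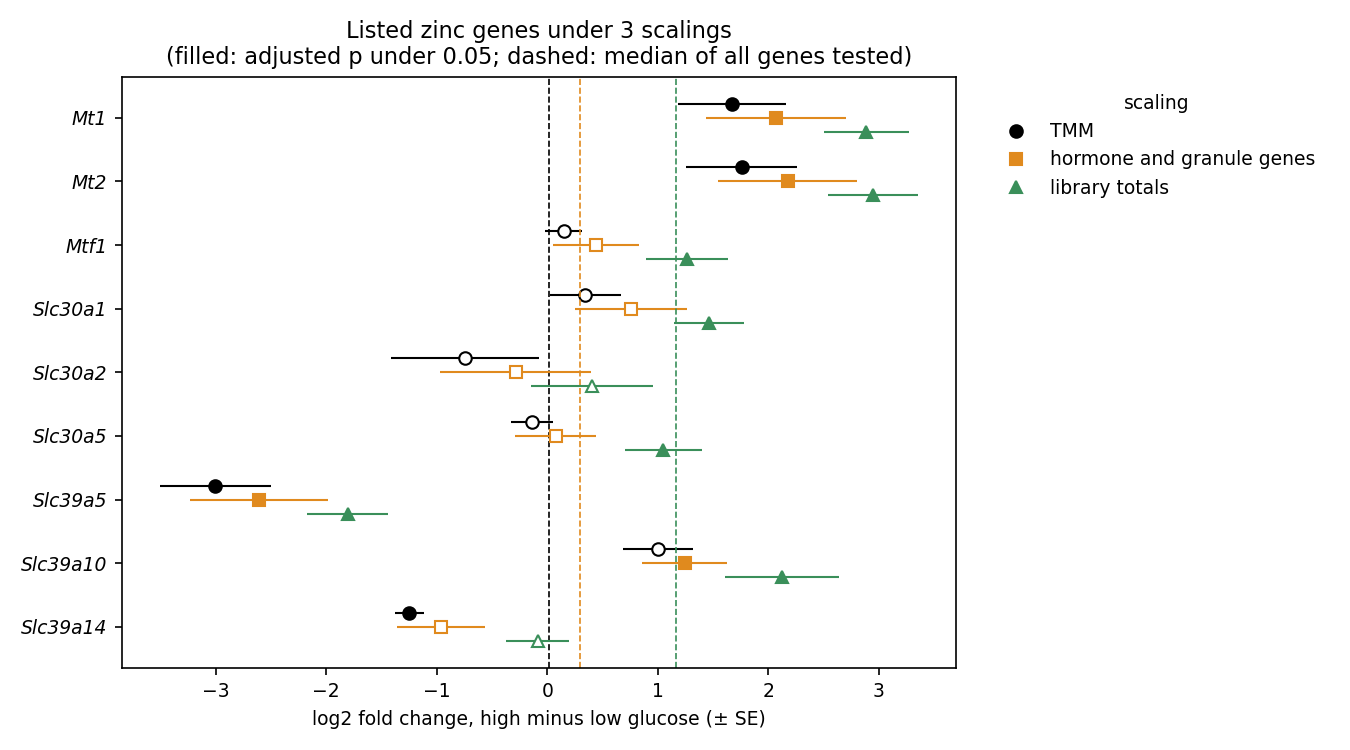
Log2 fold change (horizontal axis, high minus low glucose, ± SE) of each of the 9 genes with TMM scaling, with libraries scaled to 20 hormone and granule genes, and with library totals; filled points passed an edgeR adjusted p of 0.05 and dashed lines are the medians of all genes tested, at 0.01, 0.29 and 1.16. Mt1 and Mt2 stay right and Slc39a5 and Slc39a14 left of the median line under each scaling. A scaling moves all genes by nearly the same amount, so this placing was nearly fixed in advance. Slc39a14 passed with TMM scaling only.

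Of the scalings, library totals shifted the median of all genes tested by 1.15 on the log2 scale. With library totals 7 of the 9 genes passed, 6 higher and 1 lower, where 64.1% of all genes passed. With hormone and granule scaling 4 passed, 3 higher and 1 lower, where 15.0% of all genes passed. With the replicate block 5 passed, 3 higher and 2 lower, where 33.4% of all genes passed. Relative to the median of all genes, the log2 fold change with library totals was 1.72 for Mt1, 1.78 for Mt2, 0.96 for Slc39a10, -1.25 for Slc39a14 and -2.97 for Slc39a5. The median moves with the scaling, so such values stay close to those with TMM by construction and are no separate result.

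Slc39a5 and Slc30a2 are the members best known from exocrine cells of the pancreas. Slc39a5 encodes ZIP5, which takes up zinc across the basolateral membrane of acinar and intestinal cells. It lies on chromosome 10 (chr10:128395931-128401229, minus strand). It had 12.3, 34.8 and 42.2 CPM in high glucose replicates 1 to 3, against 137, 298 and 280.2 CPM in low glucose replicates 1 to 3. All low glucose libraries were above all high glucose libraries. Slc39a5 averaged 29.8 ± 15.6 CPM at high and 238 ± 88.0 CPM at low glucose (SD, n = 3 each). The log2 fold change was -3.00 ± 0.51 (SE), with an edgeR adjusted p of 0.00587, and it passed in each of the 15 other fits (-3.33 to -1.80). The gene overlaps Ankrd52 on the other strand, which had 4174 counts in all 6 libraries together, so reads of both could mix.

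Slc39a5 was lowest in the library with the smallest acinar share, high glucose replicate 1, and highest per library count in the one with the largest, low glucose replicate 2. For every 1000 counts of the 28 acinar markers there were 0.186, 0.202 and 0.259 counts of Slc39a5 in high glucose replicates 1 to 3, and 0.301, 0.297 and 0.281 in low glucose replicates 1 to 3. These averages, 0.216 ± 0.0387 at high and 0.293 ± 0.0107 at low glucose (SD, n = 3 each), lie closer than the CPM values do, and every high glucose library was below every low glucose library. Intestinal markers, listed above, were also lower at high glucose. The part of either cell type in the fall of Slc39a5 was not tested.

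Slc30a2 (chr4:134343181-134354484, plus strand) encodes ZnT2, which loads zinc into vesicles, among them the enzyme granules of acinar cells. It had 3.18, 23.1 and 25.4 CPM in high glucose replicates 1 to 3, against 17.7, 34.4 and 34.9 CPM in low glucose replicates 1 to 3. In each group replicate 1 was the lowest, and the groups overlapped. The log2 fold change was -0.75 ± 0.67 (SE) with an edgeR adjusted p of 0.439, and it was -0.24 without high glucose replicate 1 and 0.40 with library totals. Per 1000 acinar marker counts it had 0.0480, 0.134 and 0.156 at high and 0.0387, 0.0343 and 0.0349 at low glucose. The low glucose libraries were nearly equal in this ratio, and all high glucose libraries were above them.

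**Figure D3:**
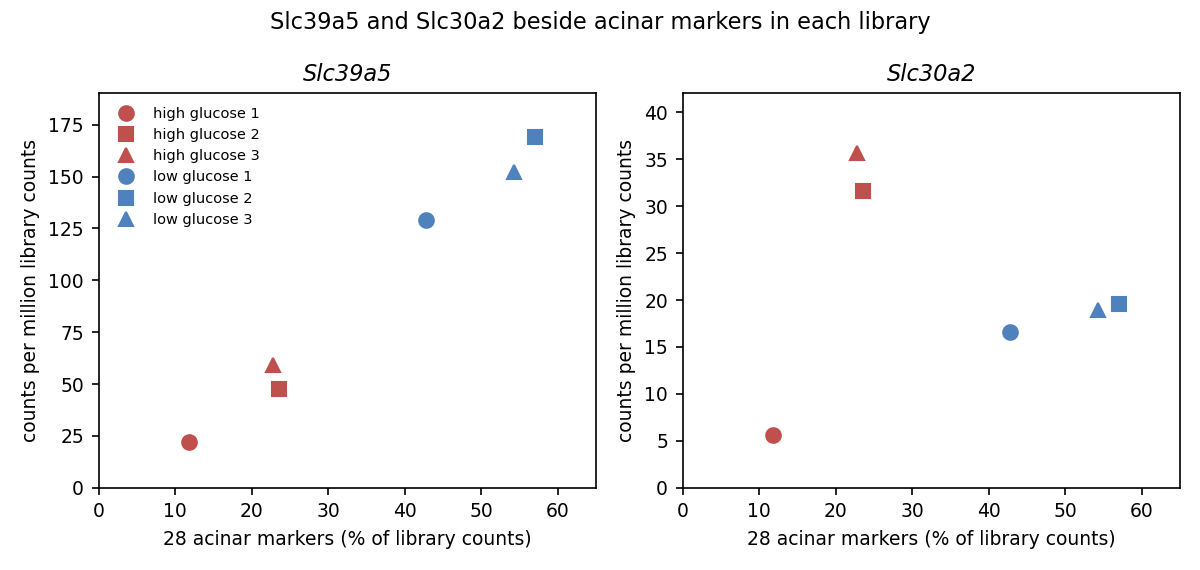
Levels of Slc39a5 (left) and Slc30a2 (right), as counts per 1000000 library counts on the vertical axes, against the share of counts taken by 28 acinar markers, in percent, in each of the 6 libraries (red for high, blue for low glucose, shapes for replicates 1 to 3). Slc39a5 lies between 22.02 counts per 1000000 at the smallest and 169 counts per 1000000 at the largest acinar share, whereas Slc30a2 is at 5.68 in high glucose replicate 1, which has the smallest acinar share, at 31.6 and 35.7 counts per 1000000 in high glucose replicates 2 and 3 and at 16.6 to 19.5 in the low glucose libraries.

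Within-library ratios placed these genes against their family members. Slc39a14 to Slc39a5 was 2.10, 0.768 and 0.547 at high and 0.421, 0.197 and 0.227 at low glucose. Slc39a10 to Slc39a5 was 1.77, 0.426 and 0.270 at high and 0.0777, 0.0204 and 0.0255 at low glucose. Slc30a1 to Slc30a2 was 6.56, 2.32 and 1.70 at high and 1.57, 0.942 and 0.937 at low glucose. In all 3 ratios every high glucose library was above every low glucose library, with log2 differences of 1.85, 4.10 and 1.41 and p = 0.1 each in the exact permutation test (0.15 adjusted over the 6 ratios). For Slc39a10 to Slc39a5 this was fixed in advance, since both genes already kept the groups apart in CPM, in opposite directions. The ratios among Slc39a14, Slc39a10 and Slc39a5 also depend on one another.

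Levels were compared between genes as CPM per kilobase of exonic length, the union of the exons of all annotated transcripts. For Mt1 this union is 1246 bases, its whole gene span, against 588 bases for Mt2. It can exceed the length of the main transcript and so understate a level, and the order below depends on it. At high glucose Mt1 (1058 ± 477) and Mt2 (821 ± 429) were followed by Slc39a5 (13.4 ± 6.995), Slc30a1 (7.49 ± 3.18), Slc30a5 (7.19 ± 1.76), Slc30a2 (4.84 ± 3.43), Slc39a10 (2.63 ± 0.879), Slc39a14 (2.39 ± 0.183) and Mtf1 (2.33 ± 0.202, SD, n = 3 each). In that order only Mt2 and Slc39a5 were neighbours whose libraries did not overlap. At low glucose the order was Mt1 (332 ± 162), Mt2 (243 ± 108), Slc39a5 (107 ± 39.5), Slc30a2 (8.13 ± 2.75), Slc30a5 (7.90 ± 0.191), Slc30a1 (5.90 ± 0.536), Slc39a14 (5.69 ± 0.303), Mtf1 (2.09 ± 0.298) and Slc39a10 (1.30 ± 0.398, SD, n = 3 each). There the neighbours that overlapped were Mt1 with Mt2, Slc30a2 with Slc30a5, and Slc30a1 with Slc39a14.

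Likeness of pattern was measured as the root mean square difference of centred log2 CPM over the 6 libraries. It was taken among 8220 tested genes with a mean of at least 10 CPM, leaving out those named by a Gm number, Rik or an accession. Mt1 and Mt2 were each other's nearest gene, at 0.11. The next were Rela (0.23) and Gys1 (0.25) for Mt1, and Rela (0.21) and Btg2 (0.26) for Mt2. Rela, which encodes an NF-kappaB subunit, had 73.7, 193 and 192 CPM in high glucose replicates 1 to 3 and 33.1, 40.1 and 53.3 CPM in low glucose replicates 1 to 3. The nearest genes to the others were Gstm2 for Slc39a5 (0.13), Irf2bp2 for Slc39a14 (0.09), Sdk2 for Slc39a10 (0.10), Slc12a8 for Slc30a2 (0.17), Cdk6 for Slc30a1 (0.03), Rbsn for Mtf1 (0.03) and Ubl3 for Slc30a5 (0.04).

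The rest of the zinc system was read from 21 further metallothionein and zinc transporter genes, 17 of which were tested. Of these 3 rose (17.6%) and 5 fell (29.4%), where 13.3% of all genes tested rose and 14.2% fell, and their median log2 fold change was 0.10, beside 0.01 for all genes tested. Mt4, Slc30a3, Slc39a2 and Slc39a12 were below the filter. Mt4 had 0 counts in every library, which allows up to 0.189 to 0.283 counts per 1000000 library counts. Mt3 was tested but scarce, at 0.998 ± 0.521 CPM at high and 0.661 ± 0.345 CPM at low glucose (SD, n = 3 each), and did not pass.

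Among 7 tested exporter genes of that set, 1 rose and 2 fell, beside the 13.3% and 14.2% of all genes tested. Slc30a4, whose product fills vesicles with zinc, had 44.3, 64.6 and 45.0 CPM at high and 29.9, 34.2 and 34.3 CPM at low glucose. Its groups did not overlap, and the log2 fold change was 0.65 ± 0.19 (SE) with an edgeR adjusted p of 0.0379. Leaving out any library except high glucose replicate 1 ended that call (log2 0.45 to 0.74), as did hormone and granule scaling (0.98) and limma-voom (0.64). Slc30a8, the transporter of the insulin granule, had 19.1, 12.3 and 13.1 CPM at high and 225, 145 and 138 CPM at low glucose. It fell by 3.51 ± 0.28 (SE) on the log2 scale with an edgeR adjusted p of 6.27e-04, beside the 5 of 10 beta-cell markers that fell, itself among them; the part of beta cells in its fall was not tested.

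Slc30a10, which encodes a manganese exporter, had 5, 0 and 0 counts in high glucose replicates 1 to 3 and 840, 284 and 67 counts in low glucose replicates 1 to 3. It passed with an edgeR adjusted p of 0.00168. No fold is given because 2 of the high glucose libraries were at 0, which allows up to 0.205 and 0.212 counts per 1000000 in them. The share of intestinal markers was 0.603%, 0.281% and 0.111% in the low glucose libraries, in the same order as Slc30a10, and a part of intestinal cells in its fall was not tested.

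Of 9 tested importer genes of that set, 2 rose and 3 fell, beside the same 13.3% and 14.2%. Slc39a6, which encodes the pairing partner of ZIP10, had 57.2, 50.5 and 50.6 CPM at high and 19.8, 16.5 and 15.6 CPM at low glucose. The groups were far apart, with a log2 fold change of 1.61 ± 0.15 (SE) and an edgeR adjusted p of 0.00103. Slc39a1, a plasma membrane importer gene, had 32.6, 41.4 and 40.1 CPM at high and 14.4, 21.8 and 20.9 CPM at low glucose. It rose by 1.01 ± 0.20 (SE) on the log2 scale with an edgeR adjusted p of 0.0112, a call that was lost with hormone and granule scaling (1.31).

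Slc39a4, the importer gene that takes up dietary zinc in the intestine, had 5.13, 5.34 and 4.18 CPM at high and 30.1, 31.1 and 17.3 CPM at low glucose. It fell by 2.42 ± 0.27 (SE) on the log2 scale with an edgeR adjusted p of 0.00141, beside the lower intestinal markers. Slc39a11 fell by 1.30 ± 0.27 (edgeR adjusted p 0.0131), a call that ended with hormone and granule scaling (-0.99), library totals (-0.08) or low glucose replicate 2 left out (-1.27). Slc39a9 fell by 0.48 ± 0.15 (edgeR adjusted p 0.0456). Its call ended with the replicate block (-0.49), where the edgeR adjusted p was 0.0534. It also ended with any library but high glucose replicate 1 left out (-0.51 to -0.37), with no filter (-0.38) and with hormone and granule scaling (-0.22), and with library totals its value was 0.70. Gpr39, which encodes a receptor for extracellular zinc, had 9.67 ± 2.69 CPM at high and 7.51 ± 1.02 CPM at low glucose (SD, n = 3 each) and did not pass.

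**Figure D4:**
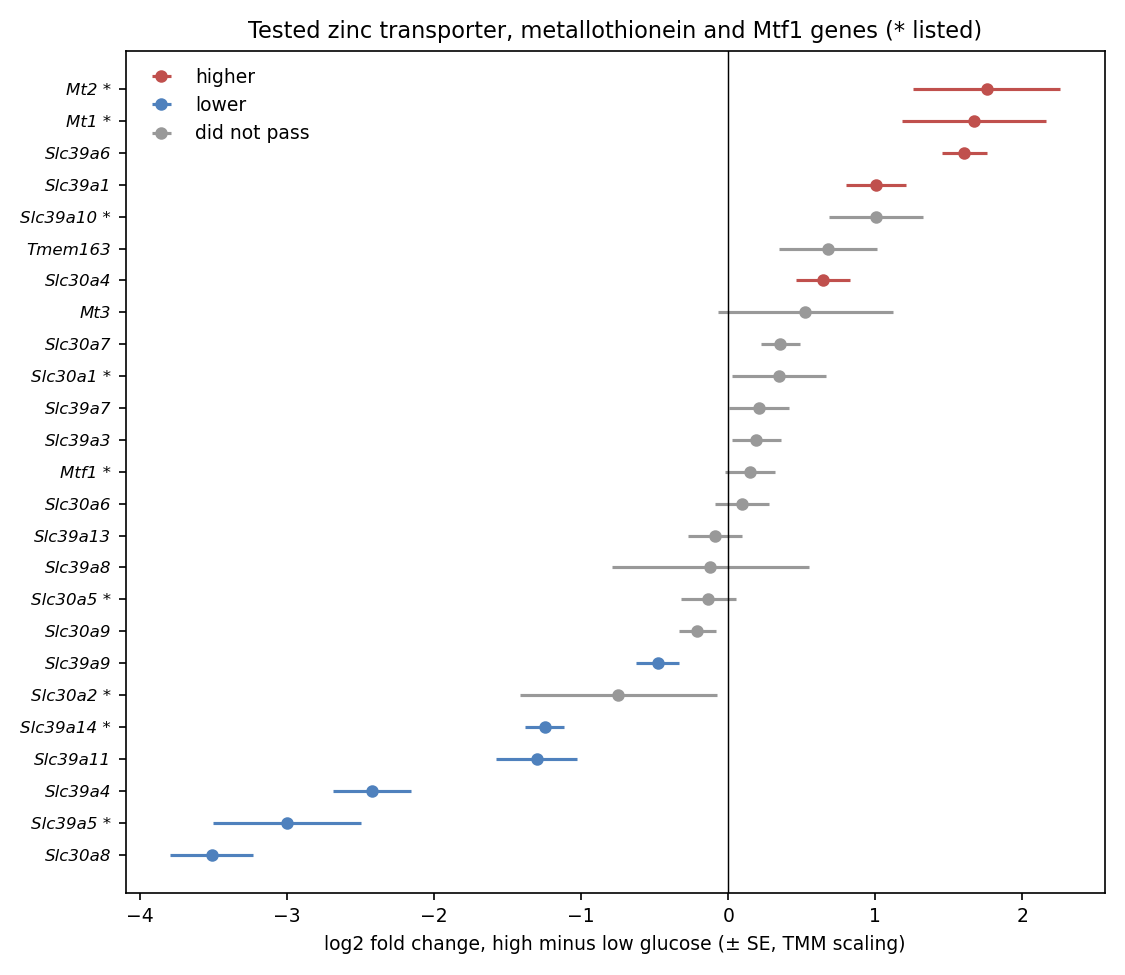
Log2 fold change (horizontal axis, high minus low glucose, ± SE, TMM scaling) of the tested zinc transporter and metallothionein genes and Mtf1, in order of size, red for higher, blue for lower and grey for not passing an edgeR adjusted p of 0.05; asterisks mark the 9 genes. Slc30a10 is not drawn because 2 libraries were at 0, and the drawn values run from -3.51 for Slc30a8 to 1.76 for Mt2.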

How the data were processed

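Polyadenylated RNA of 6 islet libraries, made from 500 ng of RNA with 9 PCR cycles per the labels' protocols, was analysed from the deposited gene counts, whole numbers that are not normalized. STAR 2.7.3a, HTSeq 0.6.1p1 and GRCm38 are named in the submitters' processing notes; no source used here states the annotation release, the strand setting or whether molecular barcodes were counted, so intervals and floors cover counting error only. Names, positions and exonic lengths came from GENCODE M21 (GRCm38), and 495 genes had none. The 9 members and all lists were chosen with earlier results of these data known.

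The groups were compared with the quasi-likelihood test of edgeR 4.0.16 in R 4.3.3, with TMM scaling, filterByExpr defaults (minimum count 10, minimum total 15) and Benjamini-Hochberg adjustment over 13996 genes. SE is the log2 fold change over the square root of F. CPM uses TMM-scaled library sizes. Ratios added 0.5 to each count. The test was checked on simulated counts, where it recovered most 4-fold but few 2-fold changes, and some calls fell on unchanged genes. A gene that missed the threshold may therefore still have changed. No label says that libraries came from separate animals, so p-values measure the spread between these libraries, which may be technical. No 2 libraries of a group differed by less than sampling noise (chi-square per degree of freedom at least 17.4).

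Named genes were all 9 members, the called members of each other list with the smallest p (at most 4 per list, 12 for other transporters), those below the filter, and the nearest genes in pattern. Correlations of the deviations from group means between libraries with the same replicate number were 0.40, 0.26 and 0.25, all above 0.1. Between libraries with other numbers they ran from -0.31 to 0.07. The numbers were therefore taken as a likely pairing of the libraries, which no label states. Because no label states it, the fit without the block was kept as the main one. That fit and the permutation tests ignore any pairing. Alternatives were DESeq2 1.42.0 (test and size factors), limma-voom (limma 3.58.1), library totals, hormone and granule scaling, acinar markers left out, other filters, a replicate block, and leaving out each library in turn.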

Additional observations from a re-analysis of the deposited data

How the results depend on the processing

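With library totals, 8978 of all genes passed (8349 higher, 629 lower), 7 of the 9 zinc genes (6 and 1) and 13 of the other zinc genes (10 and 3). With hormone and granule scaling the counts were 2103 (1053 and 1050), 4 (3 and 1) and 4 (1 and 3). By limma-voom 1 of the 9 genes rose. With 1 library left out, 1743 to 5685 of all genes passed (708 to 2793 higher, 1035 to 2892 lower), with the fewest without low glucose replicate 2 and the most without high glucose replicate 1. Of the 9 genes 2 to 5 passed (0 to 3 higher, 2 lower), and of the others 5 to 8 (2 to 3 higher, 3 to 5 lower). Directions turned for some genes that had not passed in the main fit and for Slc39a9, which had. With library totals the log2 fold change was 0.40 for Slc30a2, 1.05 for Slc30a5, 0.96 for Slc30a9, 1.05 for Slc39a8, 0.70 for Slc39a9 and 1.10 for Slc39a13. Of these Slc30a5, Slc30a9 and Slc39a13 passed as higher. With hormone and granule scaling it was 0.075 for Slc30a5, 0.061 for Slc30a9, 0.34 for Slc39a8 and 0.13 for Slc39a13. With 1 library left out Slc39a8 ranged from -0.48 to 0.38 (0.18 without low glucose replicate 3, 0.38 without high glucose replicate 1) and Slc39a13 from -0.25 to 0.014 (0.014 and 0.0089 without replicate 2 at high and low glucose); with no filter Slc39a13 was at 0.0039. The difference in log2 Mt1 to Mt2 ratio ranged from -0.11 to 0.049 with 1 library left out (0.04 and 0.049 without high glucose replicates 2 and 3, 0.0023 and 0.03 without low glucose replicates 2 and 3). The cause was not tested beyond the shift of all genes that the scalings set. The replicate block changed no call among zinc genes other than Slc39a10 and Slc39a9. Mt3 had 2 to 42 counts in a library.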

Other observations

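Metallothioneins also bind copper, and 1 of 10 copper handling genes changed, where 27.5% of all genes tested did. Slc31a1, which encodes the main copper importer, had 31.4, 31.7 and 32.0 CPM at high and 54.8, 69.2 and 60.2 CPM at low glucose, a fall of 0.95 ± 0.14 (SE) on the log2 scale with an edgeR adjusted p of 0.00338. It did not pass with library totals (0.23) or with hormone and granule scaling (-0.67). With library totals 3 of the 10 genes (Cp, Atox1 and Sod1) rose and 0 fell, where 8349 of all 13996 genes tested rose and 629 fell. With hormone and granule scaling 0 of the 10 changed. By DESeq2 Atp7b fell beside Slc31a1. With the replicate block Slc31a2 (-0.62, edgeR adjusted p 0.0310) passed beside Slc31a1, so that 2 of 10 fell, where 2473 of all 13996 genes tested did. The median of the 10 genes was -0.39, beside 0.01 for all genes tested.

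Glucocorticoids and interleukin-6 signaling through STAT3 are known inducers of metallothionein genes. Of 8 glucocorticoid targets 1 rose and 3 fell, where 13.3% of all genes tested rose and 14.2% fell, and their median log2 fold change was -0.65, beside 0.01 for all genes tested. Sgk1, a kinase gene, fell by 3.04 ± 0.26, Tsc22d3 fell by 1.58 ± 0.17 and Klf9 fell by 1.11 ± 0.16, whereas the phosphatase gene Dusp1 rose by 1.79 ± 0.20 (log2 ± SE, edgeR). Tsc22d3 and Klf9 did not pass with library totals (-0.45 and 0.05) or with hormone and granule scaling (-1.23 and -0.79). With the replicate block Per1 (-0.64, edgeR adjusted p 0.0168) passed as well, so that 4 of 8 fell, where 2473 of all 13996 genes tested did. Of 12 tested STAT3 and acute-phase genes 11 rose and 1, Il6ra, fell, beside the same 13.3% and 14.2%, with Saa1, Saa2 and Hp below the filter. Of them 10 rose and 0 fell with hormone and granule scaling, where 1053 of all 13996 genes tested rose and 1050 fell. With library totals 11 of them rose and 0 fell, where 8349 of all 13996 genes tested rose and 629 fell. Several members of that list were already known to change in these libraries, so its count is no independent result. A part of either signal in the rise of Mt1 and Mt2 was not tested. Lcn2 had 59.5, 63.3 and 94.9 CPM at high and 0.586, 0.831 and 1.10 CPM at low glucose, and the cytokine gene Lif had 31.9, 22.6 and 28.6 CPM at high and 1.09, 0.997 and 0.629 CPM at low glucose. Il6 had 427, 162 and 312 counts at high and 0, 2 and 0 counts at low glucose, and the fibrinogen gene Fgb had 1195, 512 and 1075 counts at high and 5, 2 and 7 counts at low glucose.

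Slc39a8, an importer gene closely related to Slc39a14, was chosen after its values were seen. It had 3.50, 24.7 and 23.2 CPM at high and 10.04, 20.6 and 25.6 CPM at low glucose. Replicate 1 was the lowest in both groups, as for Slc30a2, but also for Mt1, Mt2, Slc30a1 and Slc39a5. The summed CPM of the acinar markers was likewise lowest in replicate 1 of both groups. This order is therefore not particular to Slc39a8 and Slc30a2.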
